A study of Mus musculus with 10 samples.

Results

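The nuclear genes for subunits of the oxidative phosphorylation complexes were followed in microglia (the immune cells that live in brain tissue) across Trem2 genotypes. Trem2 is a myeloid surface receptor known to bind lipids. The genes were taken by name: symbols that begin with Nduf and then a, b, c, s or v and a digit, Sdha to Sdhd, those that begin with Uqcr, Cox4 to Cox8 with a further letter or digit, and those that begin with Atp5. That rule found 84 of the 24033 gene names used: 37 of complex I, 4 of complex II, 8 of complex III, 18 of complex IV and 17 of complex V. The name decides the complex here, so Ndufa4, now known as a subunit of complex IV, was counted with complex I. Likewise Cox7a2l, a factor that joins complexes into supercomplexes, was counted with complex IV, and Atp5s and Atp5sl, which are not core subunits, with complex V.

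There were 10 RNA-seq libraries of total RNA from CD11b-bead-isolated brain cells of C57BL/6 mice of 3 to 5 months. Trem2 knockout libraries (Trem2-/-, KO) were 6 (female), 9 and 12 (male). Heterozygous libraries (Trem2+/-, Het) were 5 and 11 (female) and 8 (male), and wild-type libraries (Trem2+/+, WT) were 1 and 10 (female) and 4 and 7 (male). No treatment is given in the labels. CD11b is carried by other myeloid cells as well as microglia. Whether each library came from 1 mouse or several is not in the labels, and p-values therefore cover only the spread among the libraries at hand, which may be technical.

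Oxidative phosphorylation takes place at the inner mitochondrial membrane. Complex I (NADH dehydrogenase) and complex II (succinate dehydrogenase, also an enzyme of the citric acid cycle) pass electrons to ubiquinone. Complex III hands them to cytochrome c, complex IV reduces oxygen, and complex V (ATP synthase) uses the resulting proton gradient to make ATP. Complex II is built from nuclear genes alone, whereas the others also hold subunits encoded by mitochondrial DNA, which were not analysed here. In microglia, the balance between this pathway and glycolysis is known to shift with activation.

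Library totals implied by the values were 17.6 to 22.5 M reads (M, mega) for 6 libraries and 37.2 to 45.1 M reads for libraries 9, 10, 11 and 12. Trem2 followed the labels, at 28.3, 21.4 and 23.9 RPKM in KO libraries, 104.8, 85.2 and 91.7 RPKM in Het libraries and 170.1, 184.5, 237.2 and 174.1 RPKM in WT libraries. RPKM is the number of reads per kilobase of gene and per M reads of the library. The 12 microglial marker genes passed the filter on low values and summed to between 10040 and 12180 RPKM per library. Neutrophil markers summed to 2303 RPKM in KO library 6, against 104.2 to 381.6 RPKM in the other 9. WT library 4 also stood apart: it held the highest or the lowest of the 10 values for 35 of 80 oxidative phosphorylation genes (43.8%), and for 39.3% of all genes tested. KO library 6 did so for 28 of 80 (35%), against 26.8% of all genes. In bulk RNA, fewer cells of a type and less RNA per cell cannot be told apart.

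Promoters are shown because the naming rule did not use them. Nuclear respiratory factor 1 (Nrf1) and the ETS-family factor GABP are known activators of many respiratory chain genes. RefSeq windows of 300 bases (GRCm38.p6; 250 bases before to 50 after the start) matched 69 of the 84 genes. The palindromic core of the Nrf1 motif, searched on both strands and seen in capitals in the first sequence below, was in 16 of these windows (23.2%), against 1293 of 27025 RefSeq windows (4.8%). The ETS letters CCGGAAG, also searched on both strands, were in 15 (21.7%), against 2465 windows (9.1%). By complex, the Nrf1 letters were in 7 of 32 windows of complex I, 2 of 3 of complex II, 1 of 5 of complex III, 1 of 13 of complex IV and 5 of 16 of complex V. The RefSeq windows were not matched to these genes for expression or base content, and the differences in share were not tested. A match describes the letters and is not a bound site. The windows below belong to the ubiquitous Cox6a1, to Cox7a1 and to Atp5b, the most abundant member. They lie at chr5:115348909-115349208 on the minus strand, chr7:30183921-30184220 on the plus strand and chr10:128083057-128083356 on the plus strand, and each is written 5′ to 3′ on its gene's strand with motif matches in capitals.
Cox6a1: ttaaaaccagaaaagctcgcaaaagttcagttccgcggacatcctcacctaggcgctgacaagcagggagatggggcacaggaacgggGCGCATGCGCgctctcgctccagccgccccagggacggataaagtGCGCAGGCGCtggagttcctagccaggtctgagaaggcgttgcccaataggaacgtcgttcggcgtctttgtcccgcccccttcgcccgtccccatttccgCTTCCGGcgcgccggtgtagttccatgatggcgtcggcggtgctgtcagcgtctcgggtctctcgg
Cox7a1: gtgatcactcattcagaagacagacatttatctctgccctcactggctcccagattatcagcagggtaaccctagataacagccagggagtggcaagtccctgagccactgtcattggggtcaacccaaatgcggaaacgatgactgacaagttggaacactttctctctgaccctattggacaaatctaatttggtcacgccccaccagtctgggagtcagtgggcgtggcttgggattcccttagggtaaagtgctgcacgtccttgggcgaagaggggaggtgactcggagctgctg
Atp5b: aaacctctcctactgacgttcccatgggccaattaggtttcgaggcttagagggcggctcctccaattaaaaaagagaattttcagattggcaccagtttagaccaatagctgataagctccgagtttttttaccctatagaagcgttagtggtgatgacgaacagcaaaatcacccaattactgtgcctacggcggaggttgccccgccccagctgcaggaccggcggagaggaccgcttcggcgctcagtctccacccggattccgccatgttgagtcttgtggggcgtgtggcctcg
Cox6a1 held 2 matches to the Nrf1 letters and 1 to the ETS letters on the opposite strand, whereas these letters were in neither the Cox7a1 nor the Atp5b window.

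Most subunit genes were well expressed. The mean over the 10 libraries was at least 20 RPKM for 32 genes, 5 to 20 for 37, 1 to 5 for 8 and under 1 for 7. The filter, at least 0.5 RPKM in at least 3 libraries, was passed by 80 genes, with a median of 15.3 RPKM against 6.18 RPKM for all 13621 genes that passed. The 4 that did not pass were Cox7b2, Cox8c (listed at 0 in every library), Ndufa4l2 and Ndufs5. The 84 genes together summed to 1838 RPKM on average, 0.562% to 0.610% of the summed RPKM of a library.

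**Figure D1:**
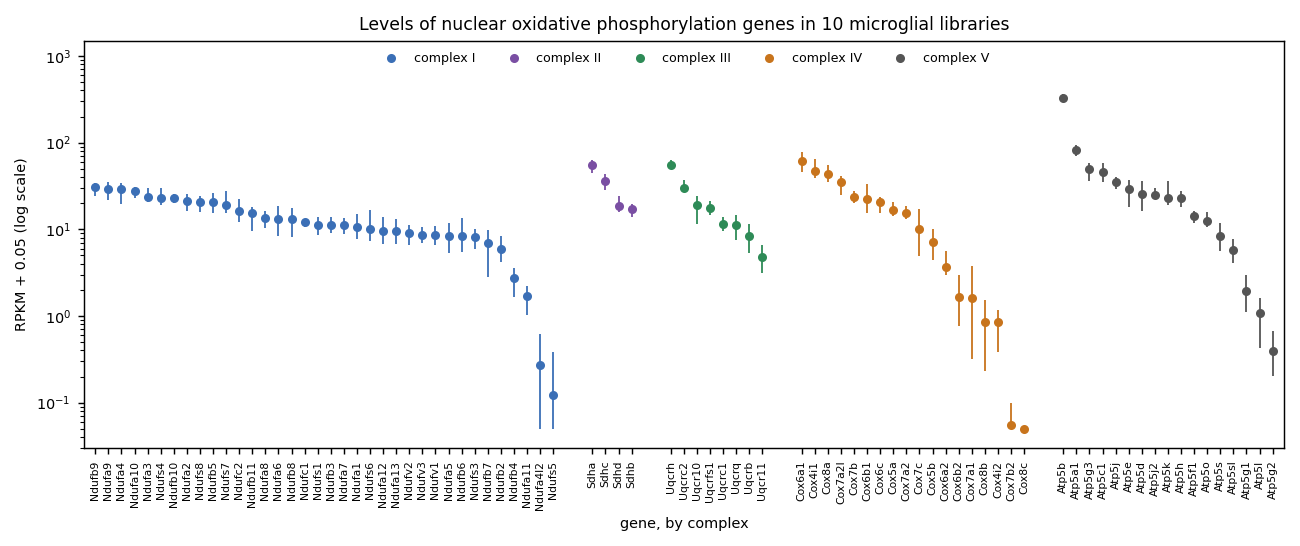
Mean RPKM over the 10 libraries (points) and the lowest to highest library (lines) for the genes of each complex, ordered by level within each complex, on a log axis after adding 0.05. Atp5b stands above every other gene, and a low tail under 3 RPKM is seen in complexes I, IV and V.

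Atp5b, the catalytic beta subunit of ATP synthase (chromosome 10, 128083273 to 128090391, plus strand, GRCm38), was the most abundant. It reached 305.2, 321.5 and 316.5 RPKM in KO libraries, 316.1, 368.1 and 350.2 RPKM in Het libraries and 329.6, 293.0, 312.1 and 350.1 RPKM in WT libraries. The genotypes overlapped, and Atp5b alone exceeded the median of its complex 14.1-fold. The next in complex V were Atp5a1, the alpha subunit, with 77.9 ± 8.14 RPKM in KO, 84.4 ± 5.19 in Het and 85.3 ± 7.29 in WT libraries (SD; n = 3, 3 and 4), and Atp5g3, which encodes the membrane-embedded c subunit that forms the rotor ring. Beta and alpha subunits are present in equal numbers in the enzyme; on this per-length scale their transcripts stood at 326.2 and 82.8 RPKM over the 10 libraries. The 3 highest genes made up 64.9% of the summed RPKM of complex V.

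In complex I, the accessory subunits Ndufb9 and Ndufa9 were among the higher members, with 30.5 and 29.3 RPKM over the 10 libraries. In complex III, Uqcrh, the hinge protein by cytochrome c1, led with 57.6 ± 6.05 RPKM in KO, 53.7 ± 0.979 in Het and 54.1 ± 2.82 in WT libraries (SD; n = 3, 3 and 4). The core protein Uqcrc2 and the small subunit Uqcr10 came next, at 29.6 and 19.1 RPKM over all libraries. In complex IV, Cox6a1, Cox4i1 and Cox8a led with 61.6, 47.6 and 43.6 RPKM.

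The 4 succinate dehydrogenase genes did not share a single level. Sdha, the flavoprotein that binds succinate, had 46.0, 55.0 and 59.4 RPKM in KO libraries, 44.1, 62.0 and 57.4 RPKM in Het libraries and 52.5, 62.9, 56.5 and 54.8 RPKM in WT libraries. Sdhb, the iron-sulfur subunit, had 17.6 ± 1.59 RPKM in KO, 17.0 ± 2.87 in Het and 16.5 ± 1.54 in WT libraries (SD; n = 3, 3 and 4). The membrane anchors Sdhc and Sdhd stood between these, with means of 36.2 and 18.7 RPKM over the 10 libraries. The Sdhb and Sdhd means differed by less than the SD of Sdhd among Het libraries, 2.78 RPKM.

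For subunits with tissue-specific paralogues, the ubiquitous form was higher in 10 of 10 libraries in every pair compared. Cox4i1 exceeded Cox4i2, the lung and hypoxia form, 59.9-fold by the ratio of means. Cox6a1 exceeded Cox6a2, known from heart and skeletal muscle, 17.2-fold, and Cox8a exceeded Cox8b, also a muscle form, 54.4-fold. Cox6b1 exceeded the testis form Cox6b2 13.8-fold. Cox7a2 exceeded Cox7a1, a heart and muscle form, 9.93-fold, with the ratio in single libraries between 4.07 and 59.0. Cox7a2l, related to both, had 33.6 ± 7.87 RPKM in KO, 37.7 ± 2.39 in Het and 33.7 ± 3.39 in WT libraries (SD; n = 3, 3 and 4). Ndufa4 exceeded Ndufa4l2, known to be induced by hypoxia, 132-fold.

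The c subunit of ATP synthase is encoded by 3 genes whose mature protein is the same. Atp5g3 exceeded Atp5g1 26.3-fold and Atp5g2 143-fold by the ratio of means. Atp5g3 had 49.6, 51.0 and 35.9 RPKM in KO libraries, 57.7, 56.8 and 51.1 RPKM in Het libraries and 50.4, 45.0, 50.7 and 47.9 RPKM in WT libraries. Every Het value was above every KO and every WT value, by less than 1 RPKM at the closest. The low forms rested on few reads, with 64 for Atp5g2, 70 for Cox8b and 69 for Ndufa4l2 summed over the 10 libraries, so their ratios are imprecise.

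**Figure D2:**
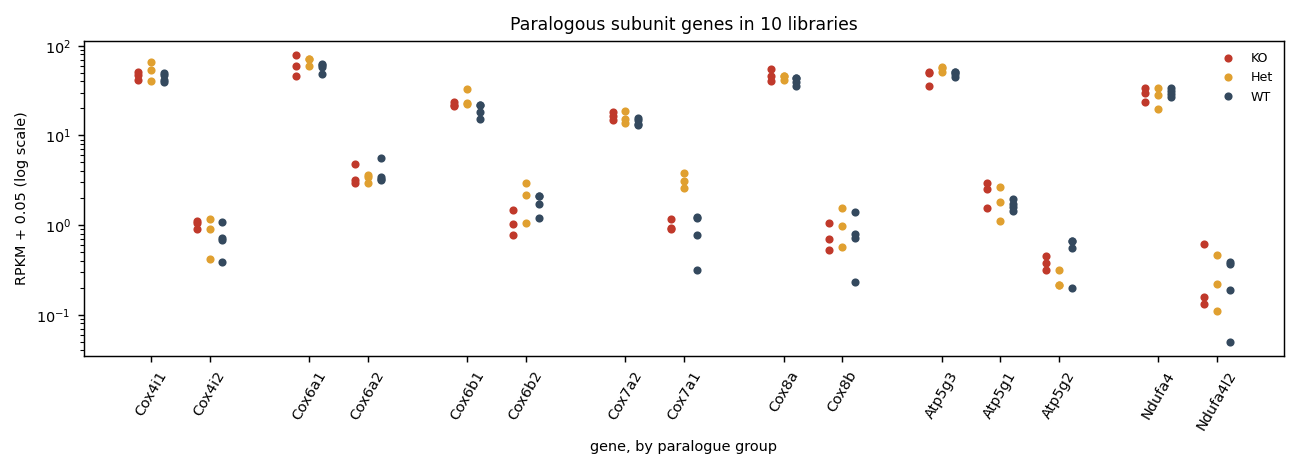
RPKM in each of the 10 libraries (points, coloured by genotype) for paralogous subunit genes, on a log axis after adding 0.05. The ubiquitous form lies above its partner in every library; Cox7a1 is the low form whose 3 Het points stand above all KO and WT points.

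Near-identical sequence in other annotated genes, elsewhere in the genome or overlapping the member's own locus, makes some levels uncertain. Of the 83 members with a coding transcript in GENCODE M21, 5 (Atp5l, Ndufs3, Uqcrb, Atp5o and Atp5h) had at least 50% of the transcript matched at 97% identity or more by genes elsewhere, so reads could be split or dropped and their levels are uncertain. Atp5l (chromosome 9, 44912557 to 44920742, minus strand), the g subunit of ATP synthase, had 57.4% matched by genes elsewhere and a mean of 1.02 RPKM. Ndufs5 (chromosome 4, 123712710 to 123718202, minus strand), a complex I subunit, had 46.9% matched by a gene elsewhere and 0.0731 RPKM, whereas the median of complex I was 11.3 RPKM. How reads with several matches were counted was not given in the sources used here. Of the 13 such members with a mean under 3 RPKM, 12 were matched by genes elsewhere over less than 50% of the transcript.

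Levels were also summed by complex. All 84 genes together summed to 1811, 1884 and 1804 RPKM in KO libraries, 1834, 1894 and 1945 RPKM in Het libraries and 1824, 1750, 1798 and 1837 RPKM in WT libraries. KO means stood between 100.1% (complex V) and 104.1% (complex IV) of the WT means. Het means stood between 99.6% (complex III) and 111.0% (complex IV) of them. The sums, being scores over chosen genes, were not tested.

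Complex I summed to 539.5 ± 18.1 RPKM in KO, 538.9 ± 29.8 in Het and 526.8 ± 6.89 in WT libraries (SD; n = 3, 3 and 4, as for the sums that follow). Complex II summed to 127.7 ± 13.1 RPKM in KO, 127.3 ± 9.99 in Het and 126.1 ± 8.56 in WT libraries. Complex III summed to 159.4 ± 5.93 RPKM in KO, 155.3 ± 3.66 in Het and 156.0 ± 12.3 in WT libraries. In these complexes the genotypes overlapped. Without WT library 4, which had the lowest complex III sum of all (138.2 RPKM), the WT mean was 162.0 ± 3.98 RPKM.

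Complex IV summed to 283.7, 324.0 and 322.2 RPKM in KO libraries, 299.6, 342.6 and 349.5 RPKM in Het libraries and 301.8, 276.1, 303.4 and 309.8 RPKM in WT libraries. Het libraries 8 and 11 were above every WT library and Het library 5 was within the WT range. Complex V summed to 702.9, 719.8 and 666.0 RPKM in KO libraries, 725.8, 752.7 and 738.8 RPKM in Het libraries and 707.7, 662.9, 692.4 and 719.0 RPKM in WT libraries. Here all 3 Het libraries were above every KO and WT library, with a Het mean of 106.3% of the WT mean. Atp5b alone made up 326.2 RPKM of the mean sum of 708.8 RPKM over the 10 libraries. The order of the libraries is therefore weighted to 1 gene and need not hold for the rest of the complex.

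**Figure D3:**
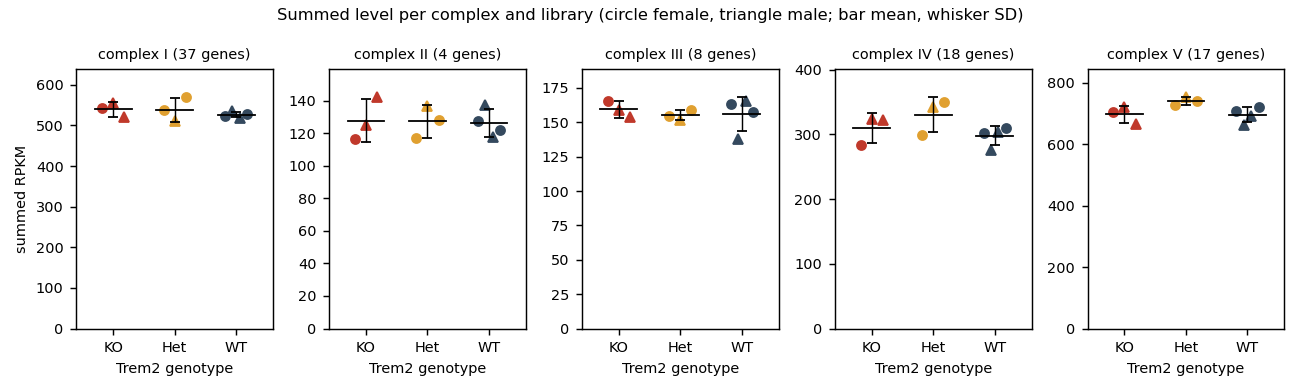
Summed RPKM of the genes of each complex in every library, by Trem2 genotype (points; circles female, triangles male), with the group mean (bar) and SD (whisker), on axes from 0. The genotypes overlap for complexes I to IV, and the Het points of complex V lie above the WT maximum of 719.0 RPKM.

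Knockout against wild type bears on what loss of Trem2 does to this pathway. By limma on log2(RPKM + 0.5), with genotype and sex as terms and p-values adjusted over all 13621 genes, 0 of 80 members passed an adjusted p of 0.05, where 0.00734% of all genes did (Trem2 alone; log2 -2.93, SE 0.14, limma adjusted p = 5.45e-06). The lowest limma adjusted p of a member was 0.942. At an unadjusted p under 0.05, 5 members were higher and 1 was lower, against 3.32% and 1.81% of all genes. Limma-voom on recovered reads gave 1 higher and 0 lower at that p, against 2.97% and 1.93% of all genes. It called 0 members. The median log2 fold change of the members was 0.04, against 0.03 for all genes tested, with 51 positive and 29 negative values. Under median-ratio scaling the median was 0.01, with 42 positive and 38 negative. It was 0.01 without KO library 9, with 41 positive and 39 negative. It was 0.10 without WT library 7, 0.09 without KO library 12 and 0.06 without WT library 1 or WT library 4. Depth was uneven between the genotypes: KO libraries 9 and 12 and, of the WT libraries, only library 10 were among the deeper ones. With a term for library depth, added after the data were seen, 1 member was higher and 2 lower at an unadjusted p under 0.05. The shares of all genes were then 3.18% and 2.57%, and the members' median was 0.07. With limma-voom and that term, 0 members were higher and 1 lower, against 2.73% and 2.59% of all genes.

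The 95% interval of the fold change lay within 2-fold either way for 78 of the 80 members and within 1.5-fold for 56, and the median half-width was 0.35 on the log2 scale. By complex, 22 of 35 members of complex I, 3 of 4 of complex II, 6 of 8 of complex III, 11 of 16 of complex IV and 9 of 17 of complex V had a positive fold change.

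The 5 members with the smallest p were 4 of complex I and 1 of complex V. Ndufb7 (chromosome 8, 83566671 to 83571626, plus strand), an accessory subunit of the membrane arm, had 6.90, 9.64 and 9.89 RPKM in KO libraries, 5.68, 7.98 and 7.12 RPKM in Het libraries and 6.99, 5.03, 2.74 and 7.07 RPKM in WT libraries. KO library 6 lay within the WT range and KO libraries 9 and 12 above it. The fold change was log2 0.73 (SE 0.28; limma adjusted p = 0.942), and without WT library 7, whose value rests on 27 reads, it was log2 0.40. Ndufs1, the large iron-sulfur subunit of complex I, had 13.7, 11.7 and 11.8 RPKM in KO libraries and 11.4, 10.2, 8.495 and 12.7 RPKM in WT libraries (log2 0.27, SE 0.11; limma adjusted p = 0.969). KO and WT libraries overlapped for this gene, and WT library 7 was lowest.

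Ndufa9 stood at 34.2, 28.2 and 35.5 RPKM in KO libraries and at 30.5, 25.1, 21.6 and 34.0 RPKM in WT libraries (log2 0.29, SE 0.12). Ndufb8, a further membrane-arm subunit, had 13.7, 14.1 and 16.5 RPKM in KO libraries and 11.6, 8.14, 10.2 and 12.9 RPKM in WT libraries (log2 0.46, SE 0.20). Atp5e, the epsilon subunit of ATP synthase, had 37.0, 35.3 and 25.3 RPKM in KO libraries and 27.4, 18.3, 30.9 and 25.6 RPKM in WT libraries (log2 0.39, SE 0.17). The limma adjusted p of Ndufa9, Ndufb8 and Atp5e was 0.969 each. Ndufa9 stood at log2 0.18 without KO library 12, and without WT library 4 Ndufb8 stood at log2 0.30 and Atp5e at log2 0.25. Of these only Ndufb8 had every KO library above every WT library. With Sdhd it made up the 2 members of 80 (2.5%) with that pattern, against 2.99% of all genes; 0 members had every KO library below every WT library, against 1.6% of all genes.

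Neutrophil markers moved with the KO libraries: 10 of 10 measured had a positive fold change and 9 an unadjusted limma p under 0.05, with summed levels of 371.9 to 2303 RPKM in KO and 104.2 to 223.7 RPKM in WT libraries. Of 9 monocyte markers, 8 were positive and 4 had an unadjusted limma p under 0.05, with sums of 82.9 to 174.1 RPKM in KO and 60.7 to 80.7 RPKM in WT libraries. Border macrophage markers were positive in 8 of 8, with 0 at an unadjusted limma p under 0.05. Their sums were 98.6 to 168.9 RPKM in KO and 85.5 to 140.8 RPKM in WT libraries. The part of these cells in the results above was not tested. Library 6 had the highest neutrophil and monocyte sums. Without it, 0 members passed by limma, the median log2 fold change was 0.05, and 8 members were higher and 1 lower at an unadjusted p under 0.05, against 4.56% and 1.86% of all genes. Without KO library 9, 1 member was higher and 1 lower, against 2.83% and 1.88% of all genes. The member counts were the same without WT library 7, against 3.37% and 2.05% of all genes.

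**Figure D4:**
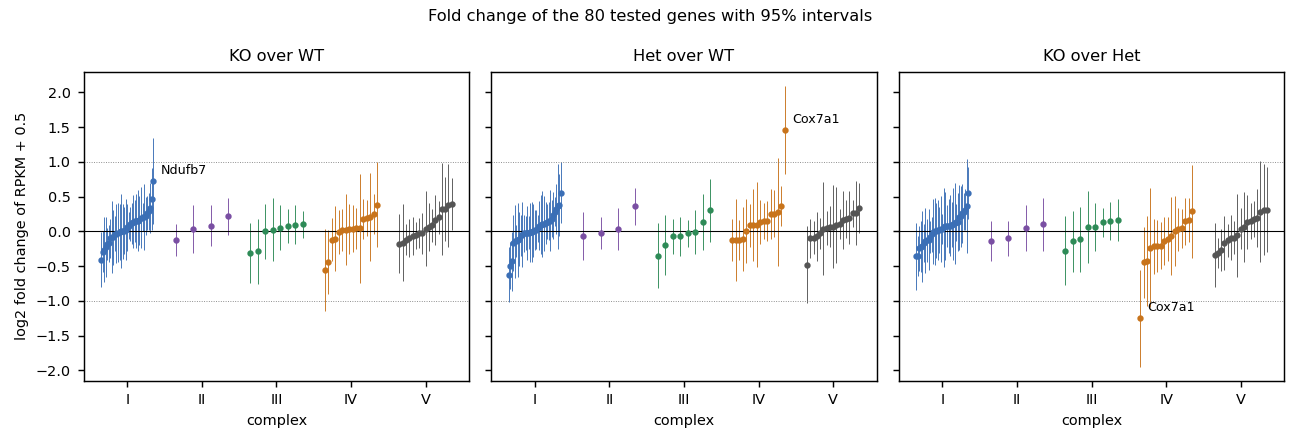
Log2 fold change (RPKM + 0.5) with 95% intervals for the 80 tested genes in KO over WT, Het over WT and KO over Het, ordered by value within each complex; dotted lines mark 2-fold. Medians lie near 0 in each panel, and Cox7a1 is the gene farthest from 0 in the panels that involve Het libraries.

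Heterozygous against wild type asks the same of the loss of 1 copy. By limma, 0 of 80 members passed an adjusted p of 0.05, where 0.0% of all genes did, and the lowest limma adjusted p of a member was 0.9999. At an unadjusted p under 0.05, 6 members were higher and 3 lower, against 1.4% and 1.35% of all genes. By limma-voom 2 were higher and 0 lower at that p, against 0.822% and 0.771% of all genes, and 0 members were called. The median log2 fold change was 0.05, with 47 positive and 33 negative values, where all genes had a median of 0.00. By complex the medians were 0.12 in complex IV and 0.07 in complex V, where 12 of 16 and 12 of 17 members were positive, and -0.05 in complex III, where 2 of 8 were.

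Het and WT libraries did not overlap for 12 members. Every Het library was above every WT library for 8 members (10.0%), against 2.23% of all genes: Cox7a1, Cox6b1, Sdhd, Ndufb2, Ndufb9, Ndufa13, Atp5g3 and Atp5h. Every Het library was below every WT library for 4 members (5.0%), against 2.3% of all genes: Ndufa5, Ndufa10, Ndufb6 and Uqcrb. These genes were not tested as a group. Levels of Atp5h and Uqcrb are uncertain because of the matching genes named above, as is that of Ndufb6, with 39.0% of its transcript matched by an annotated gene that overlaps its locus.

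Cox7a1 (chromosome 7, 30184144 to 30186078, plus strand, GRCm38), whose promoter window is printed above, was the member farthest from 0. It had 1.13, 0.860 and 0.883 RPKM in KO libraries, 2.51, 3.72 and 3.02 RPKM in Het libraries and 0.728, 0.267, 1.18 and 1.15 RPKM in WT libraries. These values rest on 8, 12 and 13 reads in KO, 17, 24 and 41 reads in Het and 6, 2, 8 and 19 reads in WT libraries. All Het libraries were above all others, among the shallower and among the deeper libraries alike. The fold change of Het over WT was log2 1.46 (SE 0.29, 95% interval 0.83 to 2.09; limma adjusted p = 0.9999), so the difference did not pass over all genes.

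Markers of other cells were examined beside it. Choroid plexus markers summed to 1092, 1773 and 1406 RPKM in Het libraries and 647.0 to 1085 RPKM in WT libraries. The Het over WT fold change was positive for 7 of 7 (median log2 0.42), with 2 at an unadjusted limma p under 0.05. At that p, 1.4% of all genes were higher. Border macrophage markers were positive in 8 of 8, with 1 at an unadjusted limma p under 0.05. Their sums were 105.6 to 176.4 RPKM in Het and 85.5 to 140.8 RPKM in WT libraries. Markers of mural cells, the contractile cells of vessels, summed to 49.6, 79.5 and 127.6 RPKM in Het libraries and 60.1 to 98.8 RPKM in WT libraries, so the groups overlapped; this list was added after the values were seen. Astrocyte markers were positive in 7 of 7 tested, with 1 at an unadjusted limma p under 0.05, and summed to 43.4 to 76.0 RPKM in Het and 40.8 to 61.2 RPKM in WT libraries. Neutrophil markers were positive in 9 of 10 (median log2 0.43), with 0 at an unadjusted limma p under 0.05. They summed to 358.3, 322.7 and 144.2 RPKM in Het and 104.2 to 223.7 RPKM in WT libraries. Monocyte markers were positive in 7 of 9, and endothelial markers in 3 of 9, with 0 in either list at an unadjusted limma p under 0.05. The part of these cells in the Het results was not tested.

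The other 4 members with the smallest p in this comparison were Ndufb6, Ndufa5, Ndufb9 and Sdhd. Ndufb6, a membrane-arm subunit (chromosome 4, 40270591 to 40279421, minus strand), had 5.47, 6.58 and 6.96 RPKM in Het libraries and 9.06, 13.4, 11.2 and 7.89 RPKM in WT libraries (log2 -0.63, SE 0.18). Ndufa5 (chromosome 6, 24518666 to 24528013, minus strand), an accessory subunit of the peripheral arm, had 6.80, 5.27 and 7.70 RPKM in Het libraries and 9.62, 10.4, 8.29 and 8.24 RPKM in WT libraries (log2 -0.49, SE 0.16). Both had every Het library below every WT library, and both had a limma adjusted p of 0.9999.

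Ndufb9 went the other way, with 34.2, 33.5 and 33.9 RPKM in Het libraries and 27.95, 24.1, 26.3 and 31.5 RPKM in WT libraries (log2 0.29, SE 0.09; limma adjusted p = 0.9999). Sdhd, a membrane anchor of complex II (chromosome 9, 50596357 to 50603812, minus strand), had 18.2, 17.5 and 22.2 RPKM in KO libraries, 24.4, 19.7 and 19.6 RPKM in Het libraries and 15.7, 16.4, 17.3 and 16.2 RPKM in WT libraries. All KO and all Het libraries were above all WT libraries. Sdhd differed by log2 0.36 in Het (SE 0.12; limma adjusted p = 0.9999) and by log2 0.22 in KO (SE 0.12; limma adjusted p = 0.977); both comparisons use the same WT libraries.

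**Figure D5:**
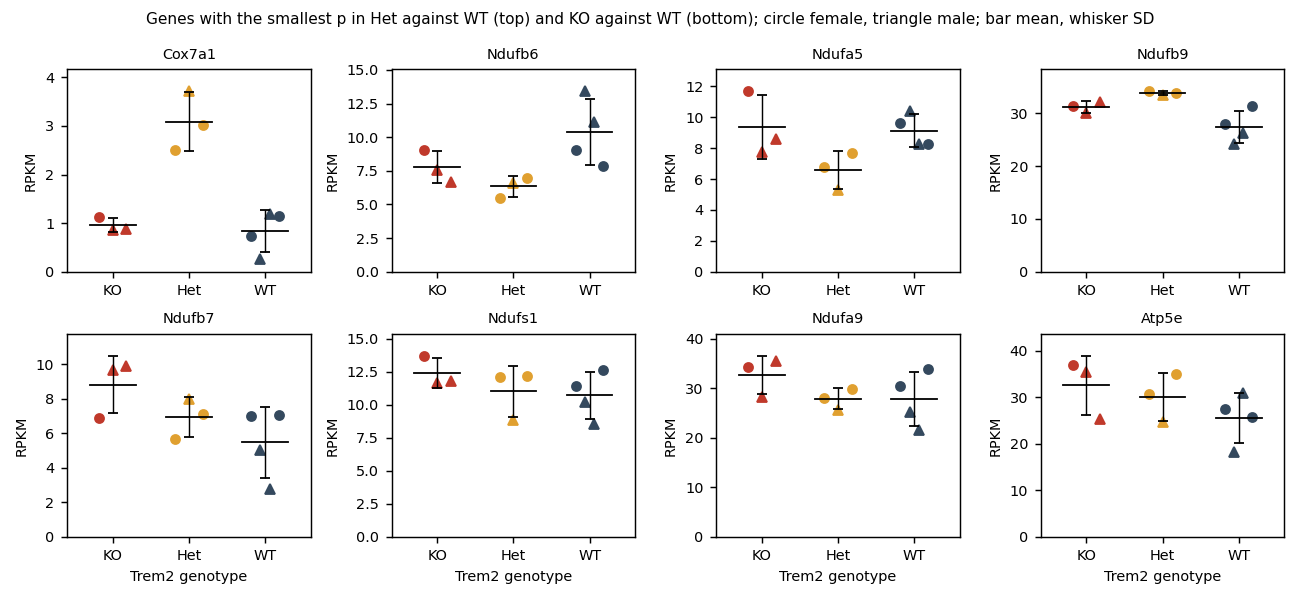
RPKM in each library (circles female, triangles male) with group mean (bar) and SD (whisker) for the genes with the smallest p in Het against WT (top row) and KO against WT (bottom row), on axes from 0. Cox7a1 shows 3 Het values between 2.51 and 3.72 RPKM above all others; in the bottom row KO and WT points overlap for each of the 4 genes.

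Knockout against heterozygous libraries shares the Het libraries with the comparison above. By limma, 0 of 80 members passed an adjusted p of 0.05, where 0.00734% of all genes did (Trem2; log2 -1.91, limma adjusted p = 0.00127), and the lowest limma adjusted p of a member was 0.999. At an unadjusted p under 0.05, 3 members were higher and 3 lower, against 2.2% and 1.15% of all genes. The median log2 fold change of the members and that of all genes were both 0.03. Under median-ratio scaling the members' median was -0.01, with 1 member higher and 4 lower at that p, against 1.62% and 1.59% of all genes. By limma-voom, 0 members were higher and 1 lower, against 1.74% and 1.2% of all genes. Without Het library 8 the members' median was -0.03, with 0 higher and 6 lower, against 2.07% and 0.902% of all genes. It was -0.02 without Het library 5 or KO library 9. Every KO library was above every Het library for 3 members (3.75%; 4.4% of all genes) and below for 6 (7.5%; 3.02% of all genes).

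Markers of other cells differed in this comparison too. Neutrophil markers were positive in 10 of 10, with 8 at an unadjusted limma p under 0.05, and monocyte markers in 7 of 9, with 3. Choroid plexus markers were positive in 0 of 7 (median log2 -0.29) and astrocyte markers in 1 of 7 (median log2 -0.20). In each of these lists 1 marker was lower at an unadjusted limma p under 0.05. Their part in the differences between KO and Het libraries was not tested.

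Cox7a1 again had the smallest p, with log2 -1.25 (SE 0.31; limma adjusted p = 0.999) and the values given above. Atp5h, the d subunit of the ATP synthase stalk, had 18.2, 22.5 and 24.0 RPKM in KO libraries, 24.0, 27.4 and 24.9 RPKM in Het libraries and 20.6, 22.7, 23.5 and 20.2 RPKM in WT libraries, with every Het library the higher (log2 KO over Het -0.31, SE 0.10). Ndufa5 had 11.7, 7.74 and 8.61 RPKM in KO libraries, all above the Het values (log2 0.55, SE 0.17). Ndufa7, a peripheral-arm accessory subunit, had 8.71, 10.8 and 9.80 RPKM in KO libraries and 11.4, 13.6 and 12.4 RPKM in Het libraries (log2 -0.36, SE 0.13). Ndufa9 had 28.02, 25.6 and 29.9 RPKM in Het libraries, overlapping the KO values (log2 0.31, SE 0.13). The limma adjusted p was 0.999 for each.

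Sex was a term of the fit, with 5 female and 5 male libraries. Library 6, with the highest neutrophil marker sum, was female. Neutrophil markers were positive in 10 of 10 in females over males (median log2 0.42), with 0 at an unadjusted limma p under 0.05. Monocyte markers were positive in 6 of 9, with 2 at an unadjusted limma p under 0.05, and endothelial markers in 2 of 9, with 0. The part of these cells in the sex results was not tested. By limma, 0 of 80 members passed an adjusted p of 0.05, where 0.044% of all genes did, and the lowest limma adjusted p of a member was 0.919. At an unadjusted p under 0.05, 6 members were higher in females and 2 lower, against 3.51% and 1.83% of all genes. By limma-voom 2 were higher and 1 lower at that p, against 3.05% and 1.51% of all genes. The median log2 fold change was 0.01, against 0.03 for all genes; under median-ratio scaling it was -0.02. A single member, Ndufb10, had every female library above every male library (1.25%; 0.565% of all genes), and 0 had every female library below (0.338% of all genes).

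Ndufb10, a membrane-arm subunit, had 25.2 (KO), 25.1 and 25.1 (Het) and 23.9 and 24.5 RPKM (WT) in female libraries, against 23.5 and 20.5 (KO), 20.9 (Het) and 19.97 and 20.9 RPKM (WT) in male libraries (log2 0.23, SE 0.08). Ndufs1 averaged 12.4 ± 0.843 RPKM in females and 10.2 ± 1.54 RPKM in males (SD, n = 5 each; log2 0.34, SE 0.09). Ndufa8, a subunit of the intermembrane face, averaged 14.9 ± 1.73 RPKM in females and 11.9 ± 1.37 RPKM in males (log2 0.33, SE 0.11). Cox6b2 averaged 2.12 ± 0.532 RPKM in females and 1.10 ± 0.348 RPKM in males (log2 0.62, SE 0.18), and Atp5h 21.6 ± 2.79 RPKM in females and 24.0 ± 1.97 RPKM in males (log2 -0.22, SE 0.07). The limma adjusted p was 0.919 for each of the 5 genes.

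The difference of KO from WT in males minus that in females rested on 1 KO female, library 6, whose neutrophil markers summed to 2303 RPKM. Their part in this difference was not tested. Male KO libraries 9 and 12 held 38.1 and 40.2 M reads, whereas male WT libraries 4 and 7 held 20.5 and 18.5 M reads. In males, genotype and library depth therefore cannot be told apart. By limma, 0 of 80 members passed an adjusted p of 0.05, where 0.0147% of all genes did, and 12 members (15.0%) had an unadjusted p under 0.05, against 14.9% of all genes. The lowest limma adjusted p was 0.186, for Uqcrq, a small subunit of complex III, which was chosen after its values were seen. Uqcrq had 11.1 and 10.2 RPKM in male KO libraries against 7.53 and 8.58 RPKM in male WT libraries, and 9.44 RPKM in the female KO library against 14.5 and 13.3 RPKM in female WT libraries (log2 difference 0.92, SE 0.23).

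Genes that serve the complexes were counted from lists. Of 46 assembly factors, which insert cofactors and join subunits, 40 were tested; 0 passed by limma in KO against WT, with 4 higher and 0 lower at an unadjusted p under 0.05 and a median log2 fold change of 0.01. The shares of all genes at that p were 3.32% higher and 1.81% lower, for this list and those that follow. Of 23 carriers and exporters, 21 were tested, with 0 passing and a median of -0.01; the highest were the phosphate carrier Slc25a3, with 147.3 ± 16.0 RPKM in KO, 153.7 ± 9.72 in Het and 149.8 ± 5.36 in WT libraries (SD; n = 3, 3 and 4), and the adenine nucleotide translocator Slc25a4. All 19 genes of the citric acid cycle were tested, with 0 higher and 1 lower at an unadjusted p under 0.05 and a median of 0.04. Of 74 mitochondrial ribosomal proteins 73 were tested, with 6 higher and 0 lower and a median of 0.07; of 84 cytosolic ones 79 were tested, with 1 higher and 0 lower and a median of 0.03. All genes had a median of 0.03 in the same comparison.

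Of 22 regulators of mitochondrial biogenesis 20 were tested, and 0 passed by limma in KO against WT, with 1 higher and 0 lower at an unadjusted p under 0.05. Gabpa, the DNA-binding subunit of GABP, had 40.1 ± 5.51 RPKM in KO, 39.4 ± 4.10 in Het and 35.4 ± 1.75 in WT libraries (SD; n = 3, 3 and 4). Yy1, a zinc-finger factor, had 30.9 ± 2.96 RPKM in KO, 30.8 ± 2.84 in Het and 28.5 ± 4.40 in WT libraries. Nrf1, named because its motif letters were searched above, had 6.19 ± 0.651 RPKM in KO, 5.89 ± 0.634 in Het and 4.79 ± 0.860 in WT libraries (log2 KO over WT 0.39, SE 0.13; limma adjusted p = 0.937). In Het against WT and in KO against Het, 0 genes of each of these lists passed by limma.

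The spread over the 10 libraries fell as the number of reads rose. The coefficient of variation over the 10 libraries had a median of 83.0% for the 5 members with 1 to 70 reads in all (Cox8c, at 0, is left out), 31.7% for 9 members with 150 to 761, 18.3% for 42 with 1087 to 4969 and 11.8% for 27 with 5444 or more. Uqcrh, at 6.86%, and Atp5b, at 7.14%, were among the steadiest named members, and Cox7a1, at 73.1% over 150 reads, was among the most variable. The coefficient takes all genotypes together, so differences between genotypes enter it. For Cox7a1 the levels were 0.958 ± 0.151 RPKM in KO, 3.08 ± 0.606 in Het and 0.832 ± 0.431 in WT libraries (SD).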

How the data were processed

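RNA-seq was deposited for 10 libraries of CD11b-isolated mouse microglia. Per the labels' protocols, libraries were made with the Ovation RNA-seq system v2 and sequenced on an Illumina HiSeq4000. The deposited values are RPKM computed by the authors, 1 per gene and library; per the submitters' processing notes, STAR, HTSeq, edgeR, limma and the build mm10 were used, and versions and annotation were not given in the sources used here. All 10 files list 24060 names, of which 27 had become dates and were dropped. RPKM steps gave whole reads for 99.99% of 19983 genes (tolerance 0.005 reads), so whole reads were recovered and tested with limma-voom as an alternative.

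The main test was limma-trend (limma 3.58.1, R 4.3.3) on log2(RPKM + 0.5) across the 13621 genes that reached 0.5 RPKM in 3 or more libraries, with genotype and sex as terms, two-sided, Benjamini-Hochberg adjusted. Fold changes on this scale understate those of low genes. Near-identical sequence in other genes was sought with blastn 2.17.0 against GENCODE M21 transcripts (97% identity over at least 50 bases). Alternatives changed the pseudocount, filter, scaling, sex term, weights, test and libraries; a term for libraries over 30 M reads was added after seeing the data.

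Genes named were the 5 with the smallest p per comparison (no member was called), the 3 highest per complex, tissue paralogues, the Sdh genes, Trem2 and the 2 highest of a pathway list; the values of 1 gene are not reported here, other exceptions are stated, and lists of other cell types are given by sums and counts. The members and lists were chosen with earlier results of these data known.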

Additional observations from a re-analysis of the deposited data

Results flagged for a closer look

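In WT libraries, 43 sets of 4 values were examined for a library whose gap to its neighbour as a share of the group's range exceeded Dixon's critical value for 4 samples, which chance gives in about 1 set of 20; 2 were found. Cox6a2, the muscle form of a complex IV subunit, had 5.51 RPKM in WT library 7 (gap 0.90 of the range), against 3.13 to 3.37 RPKM in WT libraries 1, 4 and 10. Uqcrh, the hinge protein of complex III, had 49.9 RPKM in WT library 4 (gap 0.83 of the range), against 55.1 to 56.2 RPKM in the other 3 WT libraries. The groups of 3 KO and 3 Het libraries are too small for this check.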

How the results depend on the processing

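Under every alternative run, 0 members passed; the lowest limma adjusted p was 0.519 for KO against WT, 0.836 for Het against WT, 0.431 for KO against Het and 0.613 for females against males. Cox7a1 in Het over WT ranged from log2 1.17 to 1.88 (adjusted p 0.836 to 1). Over all genes, KO against WT called 2 in place of 1 with sample quality weights, with limma-voom and with the depth term, 9 with limma-voom and the depth term, and 1 to 3 when a library was left out (3 without KO library 6). Het against WT called 1 in place of 0 with limma-voom and the depth term. The difference of KO from WT between sexes called 6 with a pseudocount of 0.1 and 21 without the filter, in place of 2. Among the complex sums (log2 ratios of group means), within libraries over 30 M reads complex I was 0.108 in Het over WT (0.03 over all libraries) and -0.0828 in KO over Het (0.002), and complex V was -0.0533 in KO over WT (0.002) and 0.0392 in Het over WT (0.09). Within libraries under 30 M reads, complex II was -0.132 in KO over WT (0.02) and -0.125 in KO over Het (0.005), and complex IV was -0.0506 in KO over WT (0.06). The cause was not tested; 4 libraries or 6 enter these ratios, and some groups then hold 1. The other 153 settings of the sums moved by less than 1 SD. The 415 alternatives run for single genes covered only the genes with the smallest p in each comparison, and all kept their direction. Those genes were picked by p in the same data, which favours a steady sign. The remaining named genes were not covered. No paired analysis was possible because the labels tie no library of one genotype to a library of another; whether libraries with neighbouring numbers were prepared together is unknown.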
